A study of Arabidopsis thaliana with 6 samples.

Results

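The genes described here are a small set of Arabidopsis thaliana genes for late embryogenesis abundant (LEA) proteins. They comprise the seed maturation protein (SMP) type, AT3G22490, AT3G22500 and AT5G27980, and the LEA18 type, AT2G23110 and AT2G23120. Of these 5 loci, 4 had a probe set that the platform's annotation paired with exactly 1 gene, out of 13355 genes measured in this way. Probe sets were to be chosen by mean brightness over all arrays where a gene had several, but each of the 4 had a single one, so no measured value decided among them. AT3G22500 (ATECP31) had none in the annotation used here and was not analysed here. The set was proposed with earlier results of these data known, so the direction of its members is not independent evidence.

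Most LEA proteins are small and very hydrophilic. They accumulate while the embryo dries and are widely held to protect membranes and proteins in the dry state. SMP-type proteins belong to the LEA family that includes the cotton protein D-34 and the maize protein RAB28, and ATECP31 is named after ECP31 of carrot embryogenic cells. LEA18-type proteins are named after PvLEA18 of common bean, which accumulates in dry seeds and in tissues short of water. Transcripts of LEA genes are stored in dry seeds and fade once a seed germinates.

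Transcript levels were compared between dry seeds of hda9-1, a mutant with a T-DNA insertion (SALK_001723) in HISTONE DEACETYLASE 9 (HDA9), whose product removes acetyl groups from histones, and dry seeds of the wild type Col. Plants of both genotypes received 16 h of light (22 °C) and 8 h of darkness (16 °C) per day, and their ripe siliques were harvested 18 to 19 days after pollination. Each genotype had 3 biological replicates, each pooled from siliques of at least 5 plants and hybridised to its own Affymetrix ATH1 array, and the number of arrays limits the precision. The mutant was represented by 1 insertion allele, and the tissue is given as dry seeds in the sample labels and as dry siliques in the design text.

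Expression is given as deposited, on a log2 scale, with array medians of 5.41 to 5.46. No probe set was paired with HDA9 alone, so the genotype labels were not checked against its transcript. Of 15 listed genes of seed reserves and late maturation 3 were measured, among them PAP85 (a vicilin-like storage protein), and all 3 lay in the brightest 1% of probe sets, with a mean level of 13.78 to 13.90 over the hda9-1 arrays and 13.84 to 13.88 over the Col arrays. RNA integrity probe sets set Col replicate 3 apart. Its actin 3′ probe set exceeded the 5′ one by 1.58 log2 units, against 1.17 to 1.28 on the hda9-1 arrays and 0.96 and 1.03 on the other Col arrays.

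All 4 measured genes fell in hda9-1 seeds. Log2 changes (hda9-1 minus Col) ran from −0.84 for AT2G23110 to −0.48 for AT3G22490, with a median of −0.79, while the median over all 22746 tested probe sets was 0.00. At the threshold used throughout, a limma p-value under 0.05 after Benjamini-Hochberg adjustment over all tested probe sets, 558 probe sets or 2.45% were lower and 312 or 1.37% were higher. With the replicate number as a block in the fit, all 4 passed as well, beside 3.64% of all probe sets that were lower. The 4 also passed when the fit was limited to the brighter 11373 probe sets, of which 4.37% were lower. Every hda9-1 array lay below every Col array for all 4 genes, a separation that 12.1% of all probe sets showed in that direction. In bulk seed RNA, fewer cells of a type and less transcript per cell cannot be told apart.

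**Figure D1:**
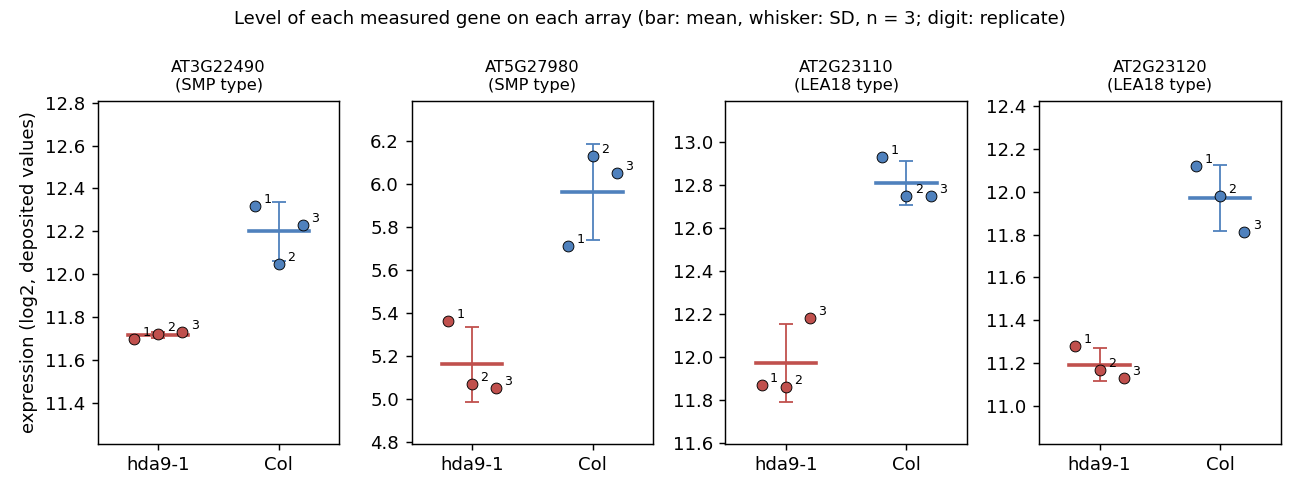
Expression of the 4 measured SMP-type and LEA18-type genes (log2, deposited values) on each hda9-1 and Col array, with points numbered by replicate, horizontal bars for means and whiskers for the SD (n = 3). Each panel has its own axis of equal span, and in each the 3 hda9-1 arrays lie below the 3 Col arrays.

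The LEA18-type genes had the lowest adjusted p-values of the 4. AT2G23110 had log2 values of 11.87, 11.86 and 12.18 in hda9-1 replicates 1, 2 and 3, against 12.93, 12.75 and 12.75 in the Col replicates. The highest hda9-1 array, replicate 3, stayed 0.56 below the lowest Col array, more than the range within either genotype (0.32 in hda9-1 and 0.18 in Col). The means were 11.97 ± 0.18 in hda9-1 and 12.81 ± 0.10 in Col (SD, n = 3 each), which gives a log2 change of −0.84 (SE 0.12), with an adjusted p of 0.0150. On a linear scale AT2G23110 was 1.79-fold lower, with a 95% interval of 1.48 to 2.16.

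AT2G23120, the next gene after AT2G23110 in the TAIR10.1 gene order, had log2 values of 11.28, 11.17 and 11.13 in the hda9-1 replicates, against 12.12, 11.98 and 11.81 in the Col replicates. Col replicate 1 was the highest array for this gene as it was for its neighbour, and the groups were 0.54 apart at their closest. The means were 11.19 ± 0.08 in hda9-1 and 11.97 ± 0.16 in Col (SD, n = 3 each), so that the log2 change was −0.78 (SE 0.11), with an adjusted p of 0.0140. This was a 1.72-fold decrease, with a 95% interval of 1.44 to 2.04. In order of p-value the pair stood 176th (AT2G23120) and 188th (AT2G23110) of the 22746 probe sets.

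Whether the LEA18-type neighbours changed by unequal amounts was asked within arrays. The within-array difference between them, AT2G23110 minus AT2G23120, averaged 0.78 ± 0.24 in hda9-1 and 0.84 ± 0.09 in Col (SD, n = 3 each), so that their log2 changes differed by −0.06. That difference did not pass a two-sided exact permutation test over the 6 arrays (p = 0.7, or 0.7 after adjustment over the 2 pairs compared), and its sign turned, to 0.03, without hda9-1 replicate 1. With 3 arrays against 3 this test cannot give a p under 0.1, and it does not show that the 2 changes are equal.

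Of the SMP-type genes, AT3G22490 was bright and gave the smallest change of the 4. Its log2 values were 11.70, 11.72 and 11.73 in the hda9-1 replicates, against 12.32, 12.05 and 12.23 in the Col replicates. The hda9-1 arrays spanned 0.03 and the Col arrays 0.27, and the gap between the genotypes was 0.32. The means were 11.72 ± 0.01 in hda9-1 and 12.20 ± 0.14 in Col (SD, n = 3 each), which amounts to a log2 change of −0.48 (SE 0.10) at an adjusted p of 0.0421 and to a 1.40-fold decrease with a 95% interval of 1.19 to 1.64. The within-genotype SD, pooled over both genotypes, was 0.10, against a median of 0.14 over all probe sets.

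AT5G27980 was measured near the middle of the array's signal. Its log2 values were 5.36, 5.07 and 5.05 in the hda9-1 replicates, against 5.71, 6.13 and 6.05 in the Col replicates. The replicates numbered 1 were the closest to the other genotype, with 0.35 between them. The means were 5.16 ± 0.17 in hda9-1 and 5.96 ± 0.22 in Col (SD, n = 3 each), giving a log2 change of −0.80 (SE 0.14) at an adjusted p of 0.0297, a 1.74-fold decrease with a 95% interval of 1.39 to 2.19. Its mean over all arrays stood at the 51.3rd percentile of probe sets, while those of AT3G22490, AT2G23110 and AT2G23120 stood at the 99.2nd, 99.4th and 98.9th. Differences of dim probe sets are compressed on such arrays.

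Between the 2 measured SMP-type genes the changes differed by 0.32 on the log2 scale (AT3G22490 minus AT5G27980). The within-array difference was 6.34, 6.65 and 6.68 in the hda9-1 replicates, against 6.61, 5.92 and 6.18 in the Col replicates. The genotypes overlapped, because Col replicate 1 exceeded hda9-1 replicate 1, and the exact permutation test gave p = 0.2, or 0.4 after adjustment over the 2 pairs. With 3 arrays against 3 this test cannot give a p under 0.1, so it cannot decide whether these 2 genes differed in response.

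**Figure D2:**
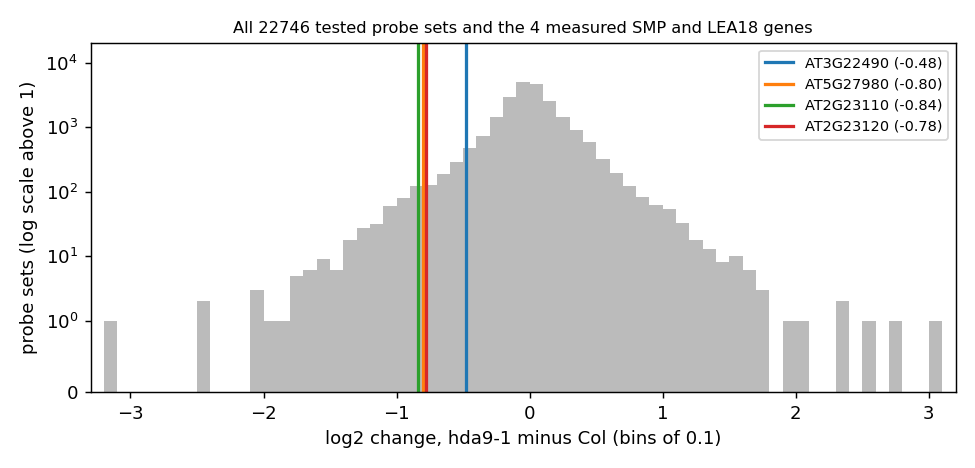
Histogram of the log2 change (hda9-1 minus Col) of all 22746 tested probe sets in bins of 0.1, on a count axis that is logarithmic above 1, with vertical lines at the 4 measured genes. AT2G23110 (−0.84), AT5G27980 (−0.80) and AT2G23120 (−0.78) lie together on the lower side, and AT3G22490 (−0.48) lies nearer to 0.

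Among all probe sets, 320 (1.41%) had a log2 change as low as or lower than that of AT2G23110, 368 (1.62%) as that of AT5G27980 and 393 (1.73%) as that of AT2G23120. For AT3G22490 the number was 1027 (4.52%). The 3 larger changes lay close together in this order, and that of AT3G22490 was nearer to the bulk of probe sets.

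Within a genotype the 4 genes did not share one order of arrays. Among the Col arrays, replicate 1 was the highest for AT3G22490, AT2G23110 and AT2G23120, by 0.12 to 0.15 over the Col mean, and the lowest for AT5G27980, 0.25 below it. Among the hda9-1 arrays, replicate 3 was the highest for AT2G23110, 0.21 above the mean, and the lowest for AT2G23120, 0.07 below it. Between same-numbered arrays the 12 differences (hda9-1 minus Col) ran from −1.06 to −0.33. Their negative sign follows from the separation of the genotypes given above. Over the 6 arrays Pearson's r was 0.94 to 0.95 among AT3G22490, AT2G23110 and AT2G23120 and 0.79 to 0.87 between each of them and AT5G27980. These correlations describe arrays that share a normalization and a genotype difference.

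The calls depended on single arrays. No estimate changed sign, but with every hda9-1 array below every Col array, leaving out 1 array could not change it. All 4 genes passed with all 6 arrays. Without Col replicate 2 there were 3 calls, lacking AT5G27980 (adjusted p = 0.0577), while 1.99% of all probe sets were lower. Without Col replicate 3, the array set apart by its RNA integrity probe sets, AT2G23110 and AT2G23120 passed, beside 1.77% of all probe sets. AT5G27980 and AT2G23120 passed without hda9-1 replicate 1 (1.04% of all probe sets), and AT2G23110 alone passed without hda9-1 replicate 3 (0.87%). None of the 4 passed without hda9-1 replicate 2, where 0.303% of all probe sets were lower, or without Col replicate 1, where 0.308% were. The estimates moved less. Leaving out any 1 array, the log2 change stayed between −0.94 and −0.78 for AT2G23110, between −0.86 and −0.70 for AT2G23120, between −0.93 and −0.72 for AT5G27980 and between −0.56 and −0.42 for AT3G22490.

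**Figure D3:**
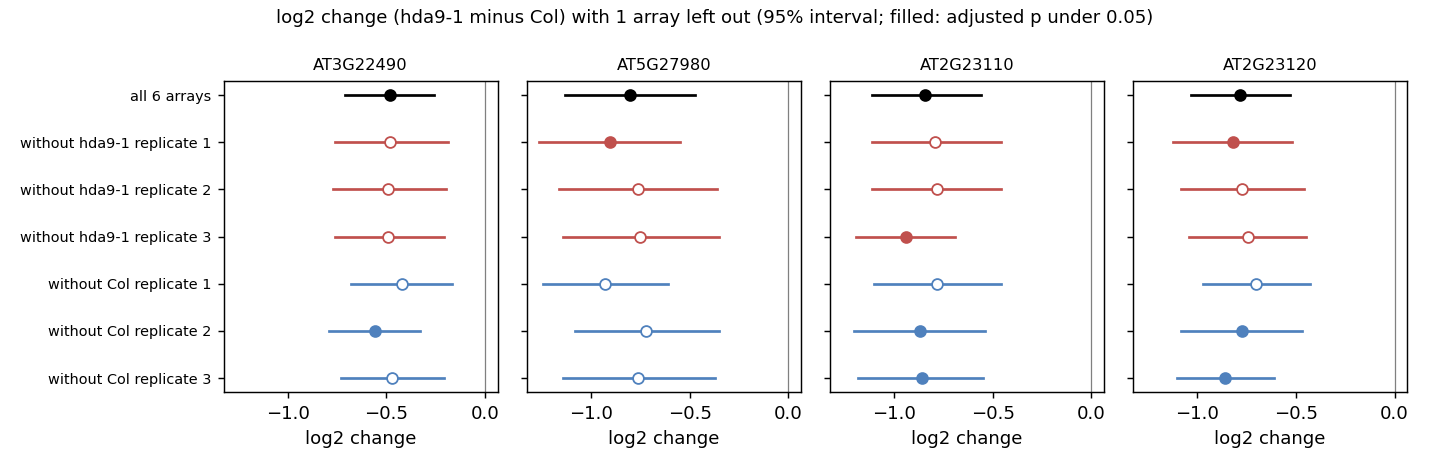
Log2 change (hda9-1 minus Col) of each measured gene with all 6 arrays and with each array left out in turn, with 95% intervals from limma and filled points where the adjusted p is under 0.05. Every interval lies below 0, while the number of filled points falls to 0 without hda9-1 replicate 2 or Col replicate 1.

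Apart from AT2G23110 and AT2G23120, which are neighbours of each other, no measured neighbour of the 4 genes passed the threshold. AT2G23100, which precedes AT2G23110, was at a log2 change of 0.04 (SE 0.09, adjusted p = 0.864). AT5G27970, which precedes AT5G27980, was at −0.12 (SE 0.15, adjusted p = 0.764). AT5G27990, which follows it, was at 0.55 (SE 0.16, adjusted p = 0.110), the opposite sign. In TAIR10.1, AT5G27990 and AT5G27980 overlap by 218 bases, AT3G22490 overlaps the end of PDF2 by 25 bases, and AT2G23118, of 144 bases, lies within AT2G23120. Which of these the probes could also bind was not tested. AT2G23118 was taken as the gene after AT2G23120 and was not measured, so no gene beyond AT2G23120 was compared. AT3G22490 and AT3G22500 have 1 annotated gene between them, a pseudogene, and no neighbour of that pair was measured.

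Some other LEA genes were lower as well. Of 46 listed, 31 were measured. Of these 5 were lower and none was higher, at the same threshold at which 2.45% and 1.37% of all probe sets were lower and higher, and their median log2 change was −0.19. The count was 4 without Col replicate 2, where 1.99% of all probe sets were lower. It was 3 without Col replicate 3 (1.77%) or hda9-1 replicate 1 (1.04%), and 1 without hda9-1 replicate 3 (0.87%). It was 0 without Col replicate 1 (0.308%) or hda9-1 replicate 2 (0.303%). By sign 27 of the 31 were negative, as were 51.2% of all probe sets, and 14 had every hda9-1 array below every Col array, as did 12.1% of all probe sets. None of the 3 other SMP-type loci listed (AT1G03120, AT5G53260 and AT5G53270) was measured. The third LEA18-type gene, AT2G33690, was measured near the floor of the arrays, at 2.99 ± 0.08 in hda9-1 and 3.04 ± 0.13 in Col (SD, n = 3 each), and its log2 change was −0.05 (SE 0.10, adjusted p = 0.852).

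The 5 called genes came from the LEA_4 group and the dehydrins, hydrophilic proteins that are likewise made during drying. AT4G36600 of the LEA_4 group was 2.61-fold lower, at 11.11 ± 0.12 in hda9-1 and 12.49 ± 0.40 in Col (SD, n = 3 each). Its log2 change was −1.39 (SE 0.19), and whether it differed from those of the SMP-type and LEA18-type genes was not tested. AT4G39130, a dehydrin gene, had a log2 change of −0.97 (SE 0.20) and an adjusted p of 0.0438. The other 3 were LEA_4 genes, AT2G42560 at −0.91 (SE 0.18, with an adjusted p of 0.0403), AT2G03850 at −0.81 (SE 0.10, with an adjusted p of 0.0123) and AT3G02480 at −0.69 (SE 0.11, with an adjusted p of 0.0215). AT3G02480 lay outside the rule for naming genes and was named after its value was seen, as were AT2G18340, AT2G35300, M17 and COR47 below.

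By group, 4 of 15 measured LEA_4 genes and 1 of 6 measured dehydrin genes were lower, while none of 3 LEA_1, 2 LEA_2, 2 LEA_3 or 2 AtM genes passed in either direction. With the replicate block AT2G18340 of the LEA_4 group, at a log2 change of −1.0 (SE 0.25), passed too (adjusted p = 0.0250, against 0.0762 without the block). This made 6 calls among the other LEA genes, beside 3.64% of all probe sets that were lower in that fit. AT2G35300 carries the symbol LEA18 in the gene table and belongs to the LEA_1 group, not to the LEA18 type. Its values were 13.07 ± 0.08 in hda9-1 and 13.29 ± 0.08 in Col (SD, n = 3 each), which is −0.22 on the log2 scale (SE 0.09, adjusted p = 0.256). The largest change that did not pass was that of M17, an AtM gene, at −1.15 (SE 0.71, adjusted p = 0.455), with hda9-1 arrays from 8.35 to 10.34 and Col arrays from 9.62 to 12.13. The highest value belonged to the dehydrin gene COR47 (0.51, SE 0.24, adjusted p = 0.308).

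**Figure D4:**
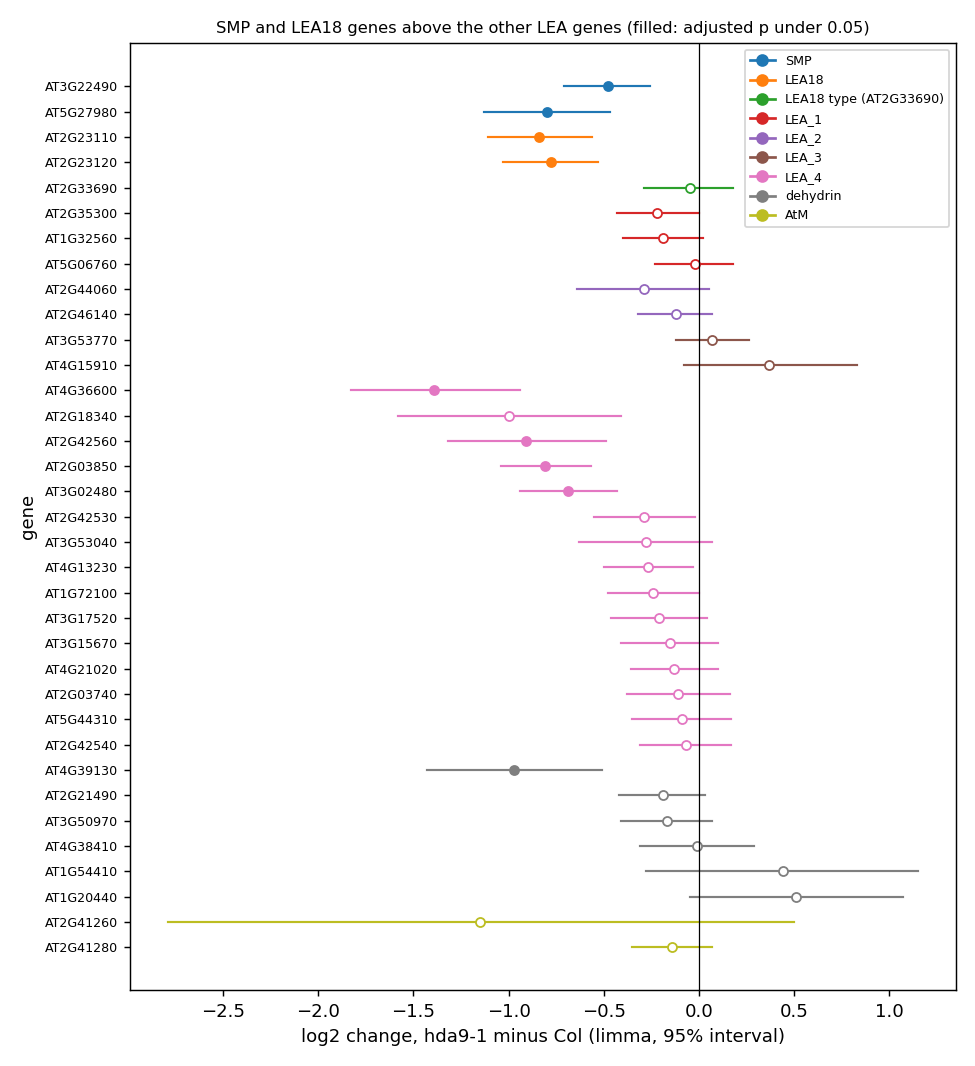
Log2 change (hda9-1 minus Col) with 95% intervals from limma for the 4 measured SMP-type and LEA18-type genes at the top and the 31 other measured LEA genes by group below, with filled points where the adjusted p is under 0.05. Filled points are the 4 genes at the top, 4 of 15 LEA_4 genes and 1 of 6 dehydrin genes, all below 0.

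Of 16 listed regulators of seed maturation, 2 had a probe set paired with exactly 1 gene and so were measured, both bZIP transcription factors. EEL was at 9.33 ± 0.33 in hda9-1 and 9.49 ± 0.12 in Col (SD, n = 3 each), which is −0.16 on the log2 scale (SE 0.17, adjusted p = 0.694). BZIP53 was at 10.68 ± 0.06 in hda9-1 and 10.68 ± 0.14 in Col (SD, n = 3 each). The SE of BZIP53 was 0.10 (adjusted p = 0.995), and neither gene passed.

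Markers of other seed and fruit tissues were also set beside the decrease. Of 6 silique wall and dehiscence genes 2 were measured, with a mean level of 9.34 to 9.57 over the hda9-1 arrays and 9.37 to 9.65 over the Col arrays, and 1 of them, ADPG1, was lower (−0.51, SE 0.10, adjusted p = 0.0399). ALC, the other, did not pass (0.39, with an adjusted p of 0.285), and its hda9-1 arrays, from 6.46 to 6.90, all lay above its Col arrays, from 5.90 to 6.44. Of 5 seed coat genes 3 were measured, with a mean of 6.89 to 7.24 over the hda9-1 arrays and 6.16 to 6.65 over the Col arrays, and 1, DELTA-VPE, was higher (1.45, SE 0.31, adjusted p = 0.0496). Both measured leaf photosynthesis genes, of 6 listed, were higher. Their mean was 9.13 to 9.31 over the hda9-1 arrays and 7.40 to 8.32 over the Col arrays. Over all probe sets 2.45% were lower and 1.37% were higher at the same threshold. AGL62, the 1 measured gene of 4 endosperm genes, read 3.38 to 3.59 on the hda9-1 arrays and 3.11 to 3.73 on the Col arrays. The part of these tissues in the decrease of the SMP-type and LEA18-type genes was not tested.

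Genes with a like pattern were ranked by Pearson's r over the 6 arrays, as a description, among genes whose range was at least 0.5 times that of the gene in question. For AT3G22490 the closest were AT4G18280, AT4G25580 and AT1G17010 (r = 0.998, 0.998 and 0.995), of 9198 genes compared. For AT5G27980 they were AT2G28400, AT1G25240 and AT1G10020 (r = 0.996, 0.986 and 0.983), of 4155. AT1G68620, AT2G47780 and AT5G24570 were closest to AT2G23110 (r = 0.997, 0.991 and 0.990), of 4313. AT3G03430, AT3G62820 and AT2G43535 were closest to AT2G23120 (r = 0.998, 0.998 and 0.995), of 4879. All 12 had negative log2 changes, from −1.48 for AT4G25580 to −0.47 for AT2G28400. That sign follows from the choice by r, since the 4 genes were themselves lower in hda9-1. None of the 12 was among the 3 closest to more than 1 of the 4 genes. This does not make them particular to 1 gene, since the 4 genes were themselves correlated over the 6 arrays. An r over 0.9 was found for 423 genes with AT3G22490, 132 with AT5G27980, 252 with AT2G23110 and 384 with AT2G23120.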

How the data were processed

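Per the labels, total RNA from 3 hda9-1 and 3 Col samples was labelled with biotin for ATH1 arrays. The authors deposited 1 table of log2 expression values per probe set, and RMA, affy and limma are named, with no version, in the submitters' processing notes. RMA equalises array distributions, so a shift of most transcripts one way would not be seen. Arrays carry no read counts.

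Of 22810 probe sets, 64 controls were left out. Probe sets were paired with genes through the platform's annotation, updated by Entrez identifier to TAIR10.1, which gave 13513 of the 22746 tested probe sets 1 gene, 503 several and 8730 none. In all lists, a gene without a probe set of its own in this annotation counts as not measured, whether or not the array holds probes for it. Genotype was the only term of 1 limma fit (limma 3.58.1, R 4.3.3) over all 6 arrays, without a filter on dim probe sets, and p-values were adjusted by Benjamini-Hochberg over all tested probe sets. The fit was tested on simulated data in which arrays were drawn independently. That test does not cover the correlation of same-numbered arrays described below.

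Deviations from the genotype means correlated at 0.34, 0.21 and 0.21 for same-numbered arrays, each over the limit of 0.1. For arrays of different numbers r ran from −0.35 to 0.09. Replicate numbers were therefore taken as a possible pairing and entered as a block in an alternative fit. The fit above kept genotype as its only term. The evidence for pairing comes from the data alone. The alternatives were a replicate block, trend and robust variances, array weights, median centring, cyclic loess, a dim filter and leaving out each array.

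The members and all gene lists were chosen with earlier results of these data known. Named genes were the measured members, the other SMP-type and LEA18-type genes, up to 4 called genes per direction with the largest change among other LEA genes, the measured regulators, the 3 genes most like each member, and adjacent genes. Markers were to be given only as counts and ranges. PAP85, ADPG1, ALC, DELTA-VPE and AGL62 were thus named outside this rule, as were the other LEA genes stated above to lie outside it.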

Additional observations from a re-analysis of the deposited data

How the results depend on the processing

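The calls of the 4 measured genes held under the 7 alternatives that used all 6 arrays. Their log2 changes kept their sign under all 13. For the fits without 1 array this followed from the separation of the genotypes. Calls among the 4 ranged from 0 to 3 when 1 array was left out, and calls of lower level among the 31 other LEA genes from 0 to 4. In those fits 0.303% to 1.99% of all probe sets were lower. The other LEA genes had 5 such calls with all arrays (2.45% of all probe sets) and 6 with the replicate block (3.64%). Array weights also gave 6, but the share of all probe sets that were lower in that fit was not computed. Leaving out 1 array gave 92 to 834 calls over all probe sets, against 870. The fit with the replicate block called 1453 probe sets and the one with array weights 1496, and the cause was not tested. The replicate block changed no call among the 4 genes, with adjusted p-values of 0.0445 for AT3G22490, 0.0410 for AT5G27980, 0.0201 for AT2G23110 and 0.0130 for AT2G23120. With same-numbered arrays paired, the difference between the 2 SMP-type changes was 0.32 and that between the 2 LEA18-type changes −0.06. Exact permutation p-values were 0.5 and 0.75. With 3 pairs this test has too few arrangements to come near a p of 0.05, so it cannot decide whether the changes differed. Leaving out 1 array moved the SMP-type difference between 0.16 and 0.51 and the LEA18-type difference between −0.20 and 0.03. A mean over several probe sets could not be formed, since each gene had 1, and the search for promoter motifs was not run.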
